A study of Mus musculus with 146 samples.

Results

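The genes described here are the 9 that encode the cytoplasmic actins and their main monomer-binding proteins, namely Actb, Actg1, Tmsb10, Tmsb4x, Pfn1, Pfn2, Cfl1, Cfl2 and Cap1. They were taken by name out of 52605 gene symbols, the list having been drawn up with earlier results of these data known, and all 9 were found in the data. Their level was taken as TPM, a unit of transcript abundance in which reads are divided by transcript length and scaled to the same total in every library. Single germ cells were isolated from ovaries of newborn C57/BL6J mice, labelled as age D0.5, and the ovaries of the sequenced cells (5 in all) came from 1 litter. RNA was amplified by Smart-seq2, a method that copies polyadenylated RNA along its full length, with ERCC spike-in RNA added to each lysate, and 146 libraries were sequenced. The mice were untreated and all libraries belong to 1 group, so the comparisons are between clusters of cells. Because the labels name no animal for any cell, all cells count as 1 sample, and no p-value or standard error was made from cells.

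Actin exists in cells as monomers and as filaments, and the proteins that bind the monomer set how much of it can join a filament. The β-thymosins, encoded here by Tmsb10 and Tmsb4x, hold monomers in reserve and keep them from assembling. Profilins, encoded by Pfn1 and Pfn2, exchange the nucleotide on actin and deliver monomers to growing filament ends. Cofilins, encoded by Cfl1 and Cfl2, bind and sever older filaments, and the cyclase-associated protein encoded by Cap1 works with cofilin to recycle the released monomers. In the newborn mouse ovary, germ cells leave the clusters called cysts and become enclosed one by one in primordial follicles, a change of cell shape and contact in which the actin cytoskeleton takes part.

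The members form pairs of similar genes, and the difference between the paralogues decides how well short reads can be assigned to each. The coding sequences of Tmsb10 and Tmsb4x are shown because this pair differed most in level. Both are equally long in GENCODE M21 (mouse build GRCm38) and are printed whole, 5′ to 3′, with the 40 positions at which they differ in capitals.

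Tmsb10: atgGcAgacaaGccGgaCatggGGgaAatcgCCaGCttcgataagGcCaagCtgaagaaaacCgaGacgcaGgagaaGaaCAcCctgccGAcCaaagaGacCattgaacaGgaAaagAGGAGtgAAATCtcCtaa

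Tmsb4x: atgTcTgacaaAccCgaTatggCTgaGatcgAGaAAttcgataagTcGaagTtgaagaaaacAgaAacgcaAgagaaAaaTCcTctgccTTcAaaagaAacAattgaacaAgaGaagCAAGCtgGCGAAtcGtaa

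They are identical at 70.4% of positions, and no word of 31 bases is shared between them. The first 150 of 1128 coding bases of Actb and Actg1 follow, since these 2 actins are the most alike of the pairs, with capitals at the 27 positions that differ.

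Actb: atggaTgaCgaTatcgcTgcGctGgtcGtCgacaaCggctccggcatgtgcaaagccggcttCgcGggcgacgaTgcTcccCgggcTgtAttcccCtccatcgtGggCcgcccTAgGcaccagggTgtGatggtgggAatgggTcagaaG

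Actg1: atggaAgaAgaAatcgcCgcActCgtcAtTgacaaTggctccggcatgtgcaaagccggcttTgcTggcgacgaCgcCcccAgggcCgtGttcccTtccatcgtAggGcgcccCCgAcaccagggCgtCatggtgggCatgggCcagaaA

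Over their whole coding sequences, Actb and Actg1 are identical at 1000 of 1128 positions (88.7%), and 9.65% of the 1098 words of 31 bases in Actb also occur in Actg1. Identity was 62.03% for Pfn1 and Pfn2 and 71.9% for Cfl1 and Cfl2, with no shared word of 31 bases in either pair. Reads can also come from copies elsewhere in the genome. Gm9844, a copy of Tmsb10, holds 336 words of 31 bases of the Tmsb10 transcripts (27.01%), and 12 other genes, among them processed pseudogenes such as Gm12715, share 54 to 1030 such words with Actg1. Gm9844 and Gm12715 were not analysed here, so the levels of Tmsb10 and Actg1 are uncertain to the extent that these copies are transcribed. With Actb, 13 other genes share 57 to 429 such words, and a level was available for 2 of them. These were Lrrc58 (429 words), with a mean TPM of 12.3 against 220.2 for Actb, and Acta1 (57 words), with 0.66. The others had no level in the data, so the level of Actb is uncertain in the same way.

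In GRCm38 the members lie on 8 chromosomes. Actb spans chr5:142903115-142906754, Tmsb10 chr6:72957347-72958748 and Tmsb4x chrX:167207093-167209315, all on the minus strand. Actg1 at chr11:120345690-120348542 and Pfn1 at chr11:70651850-70654644 share a chromosome. Pfn2 spans chr3:57841895-57848079, Cfl2 chr12:54858809-54862877 and Cap1 chr4:122859047-122886056. Cfl1 at chr19:5490455-5495201 is the one member on the plus strand.

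Promoter windows, from 250 bases before to 50 after the start site (RefSeq, GRCm38.p6), were found for 8 of the 9 members, with 3 windows for Tmsb10. The promoter of Actb was not analysed here. Searched on both strands, the CArG box, the binding sequence of serum response factor and a textbook element of actin promoters, matched in 1 of the 10 windows, that of Actg1, against 1.63% of 32851 windows of all genes. The letters CCAAT matched in 4 of the 10 windows against 37.4% of all windows, and TATAAA in none against 13.6%; the letters of these 3 motifs did not overlap in the members. The stretch of the Actg1 window that holds both matches is shown with CCAAT and the CArG box in capitals, at chr11:120348546-120348625 on the minus strand, from 130 to 51 bases before the start site.

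Actg1 promoter: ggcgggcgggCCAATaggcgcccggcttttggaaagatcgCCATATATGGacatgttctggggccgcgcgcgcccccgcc

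Gene reads per cell had a lowest value of 4837063, a median of 9669902.5 and a highest value of 33117438. Some libraries were so alike that they were taken to come from 1 cell, although the labels do not say so. In 7 pairs of libraries the log2(TPM + 1) values correlated at r = 0.989 to 0.996, while no other pair exceeded 0.842 and the median over pairs was 0.643. A chi-square comparison of counts gave 1.91 to 5.17 per gene in the 7 pairs, above the value near 1 of pure sampling noise, and 214.9 to 242.3 in the next most similar pairs. Each such pair was averaged and counted as 1 cell. Cells with Ddx4, the germ cell helicase, below 1 TPM were to be left out, which applied to 1 library with Ddx4 at 0 TPM; it had 1408459 gene reads, the lowest number of all, and 0 TPM of Tmsb10 and Actg1. In the cells used, Ddx4 ranged from 7.49 to 542.1 TPM, with a median of 185.3.

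The cells were grouped in Seurat on 20 germ cell and oocyte genes that the study discusses, none of which is a member; its own full list is not given in the sources used here, and Taf4b was an addition made here. The 3 clusters of 19, 88 and 31 cells were numbered along the first principal component. Mean TPM of the meiotic gene Sycp2 was 494.9, 166.7 and 62.3 in clusters 1, 2 and 3, and that of the zona pellucida gene Zp3, an oocyte coat protein, was 0.09, 20.1 and 580.1. Both genes were among those used to form the clusters. Not every meiotic or oocyte gene followed the same course, as means of Sycp3 (2122, 3020 and 1825 TPM) and of the oocyte factor Figla (309, 1698 and 1183 TPM) were highest in cluster 2. Clusters also differed in quality measures. Median spike-in TPM, which falls as a cell yields more RNA, was 10423, 12207 and 6375, and the median number of genes with a read was 12424, 12279 and 14506. Values of the members beside these measures, and after division by spike-ins, are given with their order along the component.

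Over all cells used, Tmsb10 stood highest of the 9 genes by median TPM at 2917, followed by Cfl1 at 1394, Actg1 at 629, Cfl2 at 210.2, Pfn1 at 163.6, Actb at 146.5 and Pfn2 at 63.1. Tmsb4x and Cap1 had medians of 0.32 and 0.31 TPM. By mean TPM, Tmsb10 took place 2 among all coding genes and Cfl1 place 27, while Actb, a gene often used as a reference, took place 613. Division by length matters here, because the Tmsb10 transcript is short. As CPM, which is each gene's share of reads without division by length, Tmsb10 took place 11, Cfl1 place 10 and Actg1 place 40. By median CPM, Cfl1 (1771) and Actg1 (934) stood above Tmsb10 (850), and Actb (160.5) and Pfn2 (98.5) above Pfn1 (90.2). Neighbours in the order of median TPM were often close in single cells. Tmsb10 exceeded Cfl1 in 78.99% of cells, Cfl2 exceeded Pfn1 in 52.2%, Pfn1 exceeded Actb in 60.9%, Actb exceeded Pfn2 in 77.5% and Tmsb4x exceeded Cap1 in 46.4%, and in these cases the ranges between the lower and upper quartiles overlapped. Cfl1 exceeded Actg1 in 89.1% of cells, Actg1 exceeded Cfl2 in 92.8% and Pfn2 exceeded Tmsb4x in 84.8%, with no overlap of those ranges.

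Detection separated the members into a group found in nearly every cell and a pair found in some. Actb, Actg1, Tmsb10, Pfn1 and Cfl1 had at least 1 TPM in every cell used (exact 95% interval 97.4 to 100%), Cfl2 in 98.6% and Pfn2 in 91.3%. Tmsb4x had at least 1 TPM in 59 cells (42.8%, interval 34.4 to 51.5%) and Cap1 in 60 (43.5%, 35.1 to 52.2%), and they were at exactly 0 in 48 and 41 cells. These intervals cover counting error only.

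**Figure D1:**
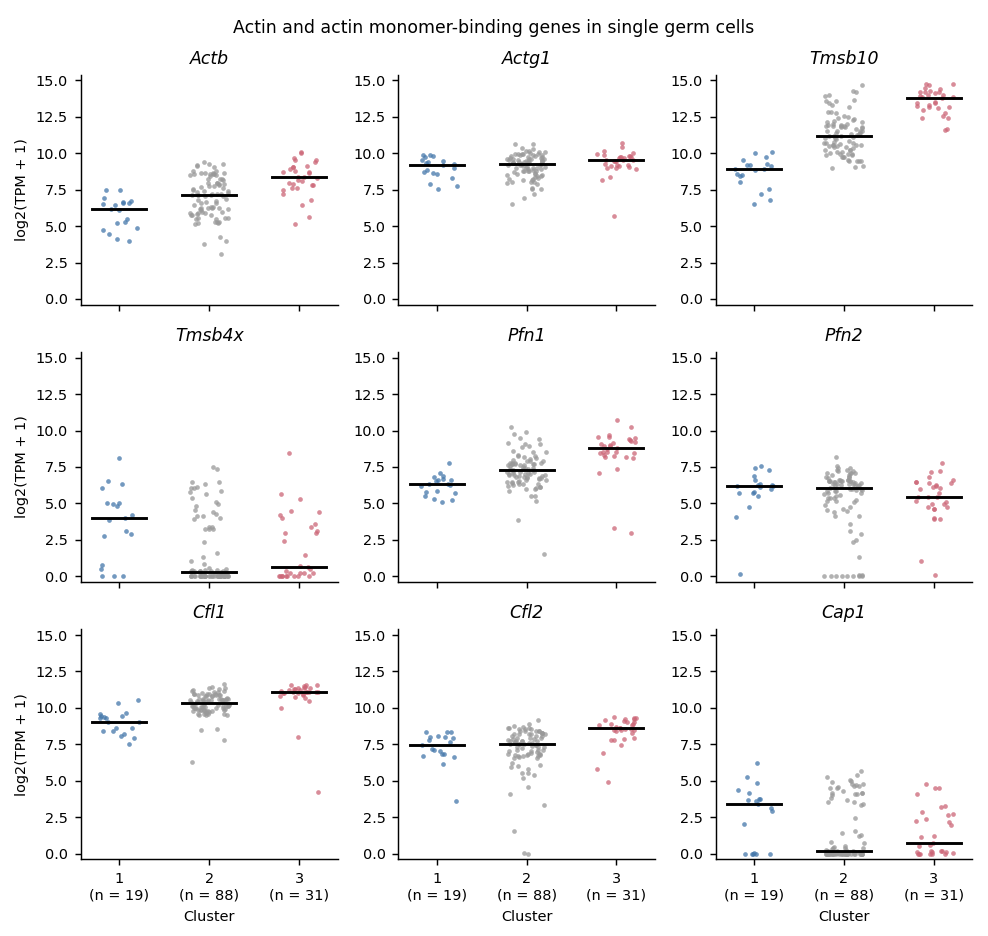
TPM of the 9 genes in each cell used, as log2(TPM + 1), by cluster; each point is a cell and the black line is the median. The medians of Tmsb10 climb from 490.0 to 14337 TPM, those of Actg1 stay between 584 and 724 TPM, and Tmsb4x and Cap1 are near 0 in most cells of clusters 2 and 3.

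The 2 actins differed in how they varied between clusters. Actb, which encodes β-actin, lay between 14.9 and 180.1 TPM in cluster 1 with a median of 72.7, between 7.53 and 661 TPM in cluster 2 with a median of 140.7, and between 33.9 and 1062 TPM in cluster 3 with a median of 328. Its mean TPM was 5.28-fold higher in cluster 3 than in cluster 1, and 25 of the 31 cells of cluster 3 exceeded every cell of cluster 1. Throughout, the ratio of 2 clusters is that of their mean TPM after adding a pseudocount of 1 TPM, and a ratio of at least 1.5-fold (0.58 on the log2 scale) is called a difference; such a call is a rule of size, not a test. Among coding genes whose mean reached 1 TPM in cluster 3 or cluster 1, 27.3% were called higher and 38.9% lower in cluster 3 (66.3% in either direction), so a single call carries little weight and the place of the ratio among all genes is given. Actb took place 621 from the top among 12596 genes.

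Actg1, which encodes γ-actin, had the lowest coefficient of variation of the 9 genes over all cells, at 48.1%. It lay between 183.2 and 955 TPM in cluster 1 with a median of 584, between 92.7 and 1625 TPM in cluster 2 with a median of 603, and between 50.9 and 1697 TPM in cluster 3 with a median of 724. Its mean was 1.32-fold higher in cluster 3 than in cluster 1, short of the 1.5-fold rule, and 5 of 31 cells of cluster 3 exceeded every cell of cluster 1. The call passed the rule when reads were counted as CPM (log2 ratio 0.60) and when TPM was divided by spike-in TPM (1.17). Actb exceeded Actg1 in 8 cells and was the lower of the 2 actins in all others. Actb made up a median of 10.5% of the 2 actins in cluster 1 (range 1.99 to 27.6%), 18.6% in cluster 2 (2.23 to 68.6%) and 34.4% in cluster 3 (2.40 to 59.98%).

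Tmsb10, which encodes thymosin β10, had the widest range. Cluster 1 cells lay between 92.4 and 1070.4 TPM with a median of 490.0, cluster 2 cells between 507 and 25806 TPM with a median of 2364, and cluster 3 cells between 3021 and 28169 TPM with a median of 14337. Clusters 1 and 3 did not overlap, as all 31 cells of cluster 3 and 71 of the 88 cells of cluster 2 exceeded the highest cell of cluster 1. How many other coding genes also separated clusters 1 and 3 was not counted. Mean TPM was 8.28-fold higher in cluster 2 than in cluster 1, 3.42-fold higher in cluster 3 than in cluster 2 and 28.3-fold higher in cluster 3 than in cluster 1. The last ratio took place 94 among 12596 coding genes. These sizes depended on how cells were grouped: with 3 equal parts of the first component the log2 ratios were 1.72 in place of 3.05 (cluster 2 over 1) and 3.61 in place of 4.82 (cluster 3 over 1), and with clusters of the 2000 most variable genes they were 2.08 and 3.64. In cluster 3, Tmsb10 took place 1 of all coding genes by mean TPM and made up a median of 1.43% of all TPM in a cell (0.30 to 2.82%), whereas in cluster 1 it took place 210 and made up 0.05%. It was among the 10 highest coding genes in 0 of 19 cells of cluster 1, 42 of 88 cells of cluster 2 and 31 of 31 cells of cluster 3.

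Tmsb4x, which encodes thymosin β4, the main β-thymosin of many other cell types, was low or absent in most cells. Its median was 14.96 TPM in cluster 1 (0 to 275.3), 0.23 TPM in cluster 2 (0 to 179.7) and 0.53 TPM in cluster 3 (0 to 354). At least 1 TPM was found in 14 of 19 cells of cluster 1 (73.7%, exact 95% interval 48.8 to 90.9%), 31 of 88 cells of cluster 2 (35.2%, 25.3 to 46.1%) and 14 of 31 cells of cluster 3 (45.2%, 27.3 to 63.97%). Its mean was called lower in cluster 3 than in cluster 1 (log2 ratio -0.98), but the call depended on the grouping and on single cells. It was lost with 3 equal parts of the first component (-0.47) and with clusters of the 2000 most variable genes (-0.22). Without library 51, a cluster 1 cell at 275.3 TPM, the log2 ratio was -0.36 and the call was lost, and without library 10, a cluster 3 cell at 354 TPM, it was -2.22. Tmsb10 made up a median of 95.03% of the summed TPM of Tmsb10 and Tmsb4x among cells of cluster 1 (53.6 to 100%). In clusters 2 and 3 it made up 99.99% and 99.995%. The Tmsb15 genes, which are further β-thymosin genes, were not counted in this sum. Tmsb10 exceeded Tmsb4x in every cell used.

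**Figure D2:**
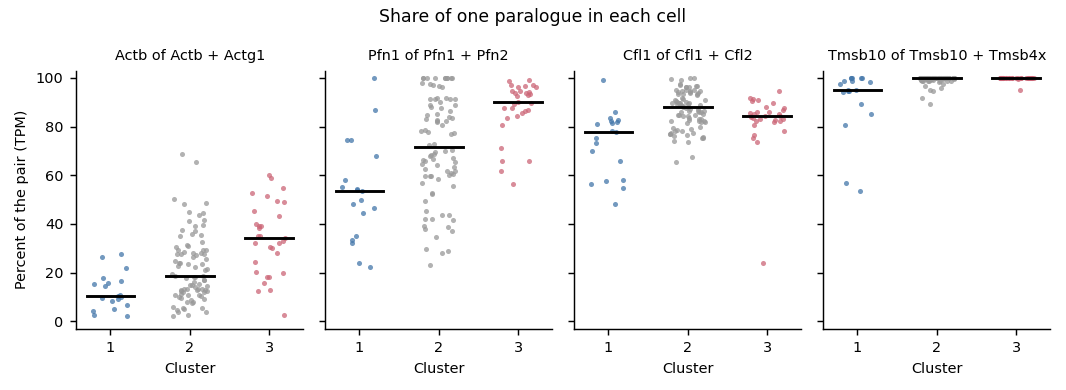
Share of one gene in the summed TPM of each paralogue pair, in percent, for each cell by cluster; the black line is the median. Median shares of Actb run from 10.5 to 34.4% and those of Pfn1 from 53.3 to 90.2% between clusters 1 and 3, while Tmsb10 holds nearly all of the summed TPM of Tmsb10 and Tmsb4x in most cells.

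Of the profilins, Pfn1 passed the 1.5-fold rule in each comparison of clusters and Pfn2 in none. As a difference of mean log2 values, however, Pfn2 passed it between clusters 2 and 1 (-0.60). Per spike-in TPM it passed in the other direction between clusters 3 and 2 (0.59), where the median of all genes was 0.68. Pfn1, the profilin found in nearly all tissues, lay between 33.4 and 219.8 TPM in cluster 1 with a median of 79.9, between 1.85 and 1190.3 TPM in cluster 2 with a median of 153.3, and between 6.86 and 1658 TPM in cluster 3 with a median of 455. Its mean was 5.96-fold higher in cluster 3 than in cluster 1, at place 538 among 12596 genes, and 27 of 31 cells of cluster 3 exceeded every cell of cluster 1. Pfn2, best known as the profilin of neurons, had medians of 70.7 TPM in cluster 1 (0.12 to 186.4), 64.9995 TPM in cluster 2 (0 to 291.9) and 43.1 TPM in cluster 3 (0.08 to 214.5), with a log2 ratio of -0.37 between clusters 3 and 1. Pfn1 was thus a median of 53.3% of the summed TPM of Pfn1 and Pfn2 in cluster 1 (22.4 to 99.9%). It was 71.5% in cluster 2 (23.1 to 100%) and 90.2% in cluster 3 (56.6 to 99.1%). These shares leave out Pfn4, a further profilin gene, whose mean was 28.4, 8.93 and 1.73 TPM in clusters 1, 2 and 3. As estimated counts that are not divided by length these shares were 26.8%, 45.8% and 76.9%, in the same order of clusters.

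Cfl1, the non-muscle cofilin, lay between 184.6 and 1503 TPM in cluster 1 with a median of 531, between 76.7 and 3121 TPM in cluster 2 with a median of 1269, and between 17.5 and 3095 TPM in cluster 3 with a median of 2185. Its mean was 2.34-fold higher in cluster 2 than in cluster 1 and 3.60-fold higher in cluster 3 than in cluster 1, and 27 of 31 cells of cluster 3 exceeded every cell of cluster 1. Library 12 held the lowest Cfl1 of all cells at 17.5 TPM, together with the lowest Actg1 at 50.9 TPM and 6.86 TPM of Pfn1, while its Tmsb10 stood at 3021 TPM, the lowest of cluster 3. Cfl2, the cofilin named for muscle, had medians of 171.2 TPM in cluster 1 (11.1 to 328), 184.6 TPM in cluster 2 (0 to 566) and 385 TPM in cluster 3 (29.3 to 671). Unlike Cfl1 it differed by 1.06-fold between clusters 1 and 2, and its mean was 1.99-fold higher in cluster 3 than in cluster 2. Cfl1 remained the main cofilin, at a median of 77.97%, 87.9% and 84.3% of cofilin TPM in clusters 1, 2 and 3.

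Cap1 was scarce in all clusters. Its median was 9.46 TPM in cluster 1 (0 to 74.2), 0.12 TPM in cluster 2 (0 to 49.6) and 0.66 TPM in cluster 3 (0 to 26.6), and its mean was 2.58-fold lower in cluster 3 than in cluster 1. At least 1 TPM was found in 13 of 19, 32 of 88 and 15 of 31 cells. Without the cluster 1 cell with 74.2 TPM, the call between clusters 2 and 1 was lost (log2 ratio -0.45), while that between clusters 3 and 1 was kept (-0.97). The latter ratio moved from -1.37 to -0.60 without the 14 cells highest in summed somatic markers, a sum led by red cell genes. Per spike-in TPM it was -0.76.

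Counted together, 4 of the 9 genes were called higher (Actb, Tmsb10, Pfn1 and Cfl1) and 2 lower (Tmsb4x and Cap1) in cluster 2 than in cluster 1, against 24.5% and 25.4% of 12476 coding genes (49.9% in either direction). The call for Tmsb4x (log2 ratio -1.30) was lost with 3 equal parts of the first component (-0.47) and with clusters of the 2000 most variable genes (-0.15), and that for Cap1 (-0.85) without the cells highest in somatic markers (-0.27) and without 1 cluster 1 cell (-0.45). In cluster 3 against cluster 2, 5 were higher (the same 4 genes and Cfl2) and 0 lower, against 18.2% and 30.4% of 12234 genes (48.6% in either direction). The call for Cfl1 (log2 ratio 0.62) was lost with mean log2 values (0.51), with 3 equal parts of the first component (0.44) and with clusters of the 2000 most variable genes (0.41), and that for Actb (1.05) with the last of these (0.38). In cluster 3 against cluster 1, 5 were higher, 2 lower and 2 neither (Actg1 and Pfn2), against 27.3% and 38.9%. The median log2 ratio of the 9 genes in the 3 comparisons was 0.16, 0.62 and 1.08, beside -0.05, -0.21 and -0.24 for all genes compared. From the top of the 12596 genes compared between clusters 3 and 1, Cfl1 took place 1080, Cfl2 2260, Actg1 3965, Pfn2 6824, Tmsb4x 9175 and Cap1 10473. As these are counts over a named list of 9, they describe the list and are no test of it.

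**Figure D3:**
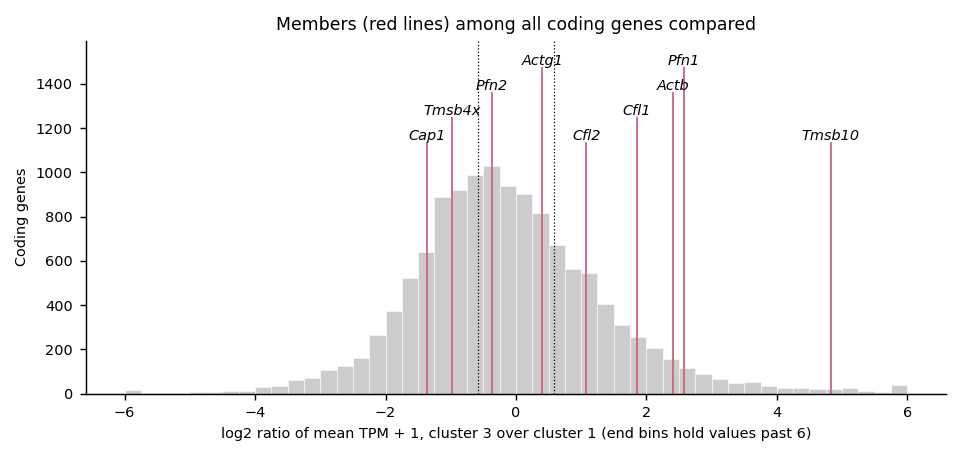
The grey bars count coding genes per bin of the log2 ratio between clusters 3 and 1 (mean TPM after adding 1), the red lines mark the 9 genes and the dotted lines the 1.5-fold rule. Tmsb10 lies at 4.82, Pfn1 at 2.57, Actb at 2.40 and Cfl1 at 1.85, while Cap1 and Tmsb4x lie at -1.37 and -0.98, inside the bulk of the distribution.

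Spike-in RNA gives a second scale, on which a level is relative to the added RNA instead of all RNA of the cell. On it the median log2 ratio of all genes between clusters 3 and 1 moved by 0.72, from -0.24 to 0.48. Relative to that median, the member ratios were 5.07 before and 5.19 after the division for Tmsb10, 2.64 and 3.03 for Actb, 2.82 and 2.94 for Pfn1 and 0.65 and 0.70 for Actg1. Cfl1 was 2.09 and 2.34, and Cfl2 1.32 and 1.34. Pfn2 was -0.13 and -0.21, and Cap1 -1.13 and -1.24. Tmsb4x was -0.73 and -1.28. Tmsb10 stayed highest, while Actb and Pfn1 exchanged places, as did Cap1 and Tmsb4x, and the ratio of Pfn2 before subtraction of the median turned from -0.37 to 0.26.

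The balance between transcripts of monomer binders and of actins differed between clusters. The sums given here count the members only and leave out Dstn, Pfn4 and the Tmsb15 genes. The summed TPM of the 2 actins had medians of 682, 763 and 1147 in clusters 1, 2 and 3, and that of the β-thymosins 519, 2407 and 14337. Their ratio within a cell had a median of 0.82 in cluster 1 (0.16 to 3.51), 2.92 in cluster 2 (0.58 to 48.9) and 13.9 in cluster 3 (2.33 to 35.6), and β-thymosin TPM exceeded actin TPM in 7 of 19, 83 of 88 and 31 of 31 cells. The ratio of cofilins to actins moved less, from a median of 1.24 to 1.93 and 2.27, and that of profilins to actins from 0.31 to 0.31 and 0.46. These are ratios of transcript levels and say nothing of protein. All 9 genes together made up a median of 0.21%, 0.49% and 1.87% of TPM in a cell.

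Along the first principal component the cells can be read as a series. Divided into 5 bins of 27 or 28 cells, median Tmsb10 was 562, 1481, 3273, 4361 and 14835 TPM, so the largest step in TPM lay between the last pair of bins. Median Cfl1 was 689, 1088, 1420, 1928 and 2216 TPM, in smaller and more even steps, and median Pfn1 was 79.9, 124.3, 161.4, 263.0 and 471. Median Actb was 69.1, 94.9, 152.0, 248.1 and 323.0 TPM. Cfl2 stayed between 173.2 and 200.4 TPM in the first 4 bins and reached 403 TPM in the last. Median Actg1 was 508, 547, 733, 662 and 715 TPM, with its highest value in the middle bin.

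Spearman's rho with this order, a description over the cells used, which share a litter and differ in depth, was 0.88 for Tmsb10, 0.75 for Cfl1, 0.70 for Pfn1, 0.58 for Actb, 0.36 for Cfl2 and 0.21 for Actg1, and between -0.18 and -0.08 for Pfn2, Tmsb4x and Cap1. Within cluster 2 alone, over 88 cells, it was 0.74 for Tmsb10, 0.65 for Cfl1, 0.51 for Pfn1, 0.45 for Actb and 0.12 for Actg1. Within clusters 1 and 3 it was 0.40 and 0.36 for Tmsb10, 0.26 and 0.32 for Cfl1, -0.01 and 0.58 for Pfn1, -0.19 and -0.21 for Actb and -0.31 and -0.01 for Actg1. For Cfl2 it was 0.191, -0.016 and 0.325 within clusters 1, 2 and 3, and for Pfn2 0.291, -0.250 and 0.229. With an order made from the 2000 most variable genes less those used for grouping, the value over all cells was 0.89 for Tmsb10, 0.64 for Cfl1, 0.59 for Pfn1 and 0.58 for Actb.

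The members also varied with the quality measures of the cells. Spearman's rho with spike-in TPM was -0.55 for Cfl2, -0.40 for Cap1, -0.35 for Actg1 and -0.26 for Pfn2, for each of which it was further from 0 than rho with the order. It lay between -0.33 and -0.23 for Cfl1, Pfn1, Actb and Tmsb10, and was 0.07 for Tmsb4x. With the number of genes with a read, rho ranged from -0.11 for Tmsb4x to 0.41 for Cfl2, and was 0.35 for Tmsb10 and 0.37 for Actb. With gene reads it ranged from -0.22 for Tmsb4x to 0.36 for Cfl2. With the mitochondrial percentage it was 0.35 for Tmsb10 and 0.23 for Actb, and lay between -0.09 and 0.03 for the other 7 members. The part of these measures in the differences between clusters was not tested beyond the division by spike-ins.

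**Figure D4:**
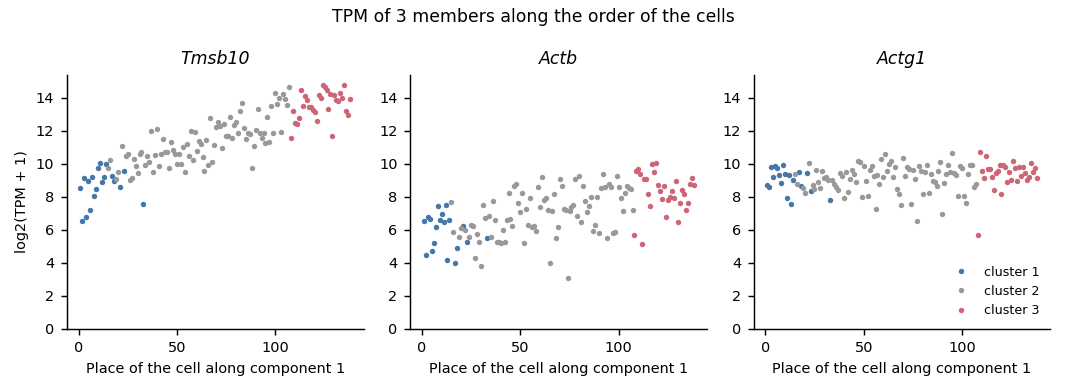
log2(TPM + 1) of Tmsb10, Actb and Actg1 in cells placed by rank along component 1, coloured by cluster. Tmsb10 climbs along the whole order (rho 0.88), Actb climbs with more scatter (0.58 over all cells, but -0.19 and -0.21 within clusters 1 and 3), and Actg1 is nearly level (0.21).

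Across the cells used, the 36 pairs of members had a median rho of 0.09, and 5 pairs exceeded 0.5. These were Pfn1 with Cfl1 (0.78), Tmsb10 with Cfl1 (0.77), Tmsb10 with Pfn1 (0.73), Actb with Tmsb10 (0.57) and Actb with Cfl1 (0.56). Within cluster 2 they were 0.58, 0.60, 0.53, 0.46 and 0.38, in the same order. Within cluster 1 they were 0.50, 0.29, 0.32, -0.01 and 0.09, and within cluster 3 0.55, 0.58, 0.44, -0.41 and 0.07, so neither pair with Actb exceeded 0.1 in clusters 1 and 3. Among the paralogues, rho was 0.49 for Cfl1 with Cfl2 and 0.41 for Actb with Actg1, above the median of the pairs, and -0.12 for Pfn1 with Pfn2 and -0.06 for Tmsb10 with Tmsb4x. Division by spike-in TPM, which puts the same divisor under both genes of a pair, gave a median of 0.45, with 0.75 for Cfl1 with Cfl2 and 0.67 for Actb with Actg1.

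Among 14100 other coding genes, the patterns most like Tmsb10 by Spearman's rho over the cells used were those of Dppa3 (0.88), a maternal factor of oocytes, Ldhb (0.85), a subunit of lactate dehydrogenase, and Ube2c (0.81), a ubiquitin-conjugating enzyme of the cell cycle. Dppa3 was also most like Cfl1 (0.83), followed by Tmem14c (0.82) and Myl12b (0.80), a myosin regulatory light chain. Serf2 (0.81), Dppa3 (0.80) and Cox6a1 (0.78), a subunit of cytochrome c oxidase, were most like Pfn1. For Actb the values were lower, at 0.65 for Tmem14c, 0.61 for Zbed3 and 0.58 for Mphosph6. Among the other members for which the search was run, highest values were 0.44 for Actg1 (Eef2, a translation elongation factor), 0.48 for Pfn2 (Hnrnpu, a nuclear RNA-binding protein) and 0.54 for Cfl2 (E2f5, a cell cycle transcription factor). Tmsb4x and Cap1, found in fewer cells, were not searched.

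The 7 cells with a pair of libraries show how far a level moved between libraries taken to be of the same cell. All 7 lay in cluster 2. Tmsb10 was higher in the later-numbered library, one of 140 to 146, in 7 of 7 pairs, by 0.20 to 1.28 on the log2 scale, which is up to 2.43-fold. In the cell with the largest difference, 1356 TPM in one library stood against 3295 TPM in the other. Cfl1 was also higher in 7 of 7 pairs, by 0.04 to 0.40, and Pfn1 in 5 of 7, by -0.25 to 0.57. Actg1 moved by at most 0.06 and Actb by at most 0.19 in either direction. Of 3221 coding genes whose mean reached 50 TPM in these libraries, 3.20% were higher in the later library in all 7 pairs, the median absolute difference was 0.08, and the mean difference of Tmsb10 (0.85) took place 4 from the top. As no pair lies in clusters 1 or 3, the spread between libraries in those clusters, and its part in the ratios between clusters, was not tested.

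**Figure D5:**
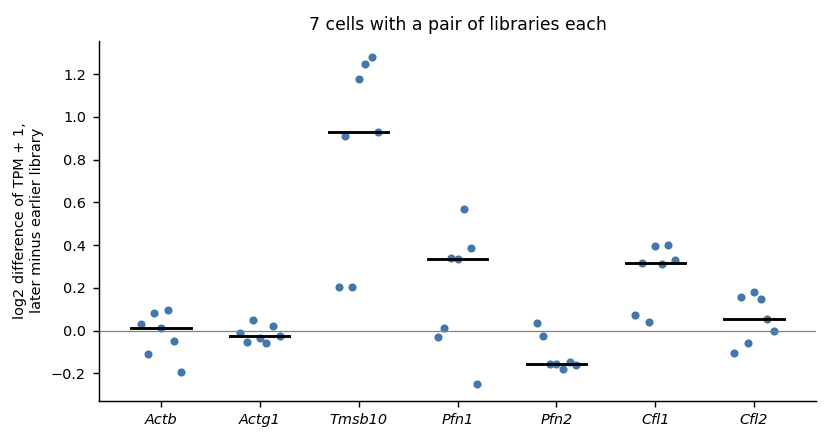
Difference of log2(TPM + 1) between the later-numbered and the earlier-numbered library taken to be of the same cell, for 7 members; each point is 1 of 7 cells and the black line is the median. Tmsb10 lies above 0 in all 7 cells (0.20 to 1.28), whereas Actg1 stays within 0.06 of 0.

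Other actins were nearly absent. The muscle actins Acta1, Acta2, Actc1 and Actg2 had at least 1 TPM in 8, 4, 4 and 2 cells, with highest values of 30.3, 40.7, 27.9 and 28.9 TPM, and Actbl2 did not reach 1 TPM in any cell, which allows a share of up to 2.64% (exact 95% bound). Means of the muscle actins were highest in cluster 1, at 1.89 to 3.02 TPM, where 2 or 3 of 19 cells carried them.

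Further monomer-binding genes were called in both directions. Of the 10 listed, 8 reached a mean of 1 TPM in cluster 1 or 3, of which 2 were called higher, 3 lower and 3 neither in cluster 3 than in cluster 1, shares near the 27.3% and 38.9% of all genes compared. Dstn, which encodes destrin, a relative of the cofilins, had mean TPM of 120.02, 101.7 and 66.3 in clusters 1, 2 and 3 and was 1.80-fold lower in cluster 3 than in cluster 1. Twf1, which encodes twinfilin, stood at 20.1, 22.7 and 15.5 TPM. Pfn4, a testis profilin, stood at 28.4, 8.93 and 1.73 TPM and was 10.8-fold lower in cluster 3. Tmsb15b1, a further β-thymosin gene, stood at 1.77, 2.43 and 21.6 TPM and was called higher, as was Tmsb15b2 at 20.3, 15.9 and 33.5 TPM. Tmsb15a was called lower (1.90, 5.44 and 0.78 TPM), and Tmsb15l (6.12, 4.59 and 6.87 TPM) and Twf2 (3.57, 1.67 and 2.38 TPM) were neither. Tmsb15a reached 1 TPM in 6 cells, the highest of which held 383 TPM. The Tmsb15 genes form 1 family, and the split of reads between them was not tested. Cap2 had means of 0.07, 0.02 and 0.30 TPM, and Pfn3 was at 0 in all cells.

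Genes that act on filaments gave mixed counts between clusters 3 and 1. Of 13 regulators of cofilin, with Cap1 counted among them, 5 were higher and 5 lower; the most abundant, Coro1b and Coro1c, which encode coronins, had log2 ratios of -1.50 and -0.05. Of the 10 genes of the Arp2/3 complex, which nucleates branched filaments, 3 were higher and 1 lower, with 1.52 for Arpc5l and -0.15 for Arpc2. Of 16 nucleation-promoting genes, 2 were higher and 9 lower, with 0.53 for Wasl and 0.26 for Brk1.

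Among formins, Spire genes and Cobl, which start unbranched filaments, 9 of 15 measured were higher and 5 lower, with 0.97 for Diaph3 and 1.08 for Spire1. Among capping and severing genes 2 of 14 were higher and 9 lower, and Capza2 and Capzb, which encode capping protein subunits, had log2 ratios of -1.81 and -0.78. Of 18 measured cross-linking and membrane-linking genes 7 were higher and 8 lower, with 2.69 for Rdx, the gene of radixin, and 0.85 for Marcksl1.

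Of 4 tropomyosin genes 2 were higher, Tpm1 at 1.07 and Tpm3 at 0.92, and 2 lower. Of 10 measured genes of non-muscle myosin II and its kinases 5 were higher and 2 lower, with 2.59 for Myl12b and 0.30 for Myl12a. Serum response factor and its partners, whose activity responds to actin monomers, numbered 4, with 2 higher and 2 lower, among them Mkl1 at 1.21 and Scai, an inhibitor, at -2.13. Of 17 genes of actin folding and modification 4 were higher and 8 lower, with -1.50 for Cct6a, a chaperonin subunit, and 0.86 for Pfdn6, a prefoldin subunit. Ipo9, the importin of actin, stood at -1.41 and its exportin Xpo6 at -0.41. These shares are read against 27.3% higher and 38.9% lower among all genes.

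Markers of other ovarian cells had low medians, but single cells held more. Over 8 pregranulosa markers the summed TPM had a median of 0.30, 0.33 and 0.58 in clusters 1, 2 and 3, with the highest cell at 82.3 TPM and Foxl2 at 1 TPM or more in 4 cells. The study had screened its amplified cDNA by quantitative PCR and taken out samples positive for Foxl2 before sequencing. Summed immune markers had medians of 0.09, 0.04 and 0.69 TPM and exceeded 10 TPM in 1 of 19, 8 of 88 and 9 of 31 cells of clusters 1, 2 and 3. Among them C1qb, a complement gene of macrophages, had means of 0.0047, 1.83 and 6.81 TPM, while Tyrobp was at 0 in all cells and C1qa, C1qc and Cd74 reached 1 TPM in none. The part of these levels in the member ratios was not tested. Medians were 0.05, 0.07 and 0.09 TPM for endothelial markers and 4.35, 0.97 and 0.48 TPM for stromal markers. The stromal sum reached 294.3, 879 and 38.3 TPM in the highest cell of clusters 1, 2 and 3 and exceeded 10 TPM in 6 of 19, 27 of 88 and 5 of 31 cells, and so was not low beside Tmsb4x and Cap1. Smooth muscle markers had medians of 0, 0 and 1.37 TPM, with Cnn1 at a mean of 7.37 TPM in cluster 3. Red cell genes, chiefly globins, varied between 0 and 325001 TPM with medians of 34.5, 74.2 and 30.2. Spearman's rho of the summed somatic markers over the cells used was 0.21 with Pfn2, 0.19 with Cap1, 0.13 with Cfl2 and 0.08 with Actg1, and lay between -0.06 and 0.02 with the other 5 members. With the immune markers it lay between -0.08 and 0.25 over the 9 genes. Without the 14 cells with the highest summed somatic markers, the log2 ratio of Tmsb10 between clusters 3 and 1 was 4.88 and that of Actb 2.46. That of Cap1 moved from -1.37 to -0.60, and its call between clusters 2 and 1 was lost (from -0.85 to -0.27). Leaving out cells by the lists other than red cell genes was not tried.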

How the data were processed

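FastQC and Salmon are named in the submitters' processing notes, with build mm10, to which the authors added the spike-in sequences. For each gene symbol they deposited TPM, the estimated count of reads (not normalized, not always whole) and transcript lengths. The deposited lengths in bases disagreed with the TPM for genes with several transcripts (Tmsb10: effective length 84.7 deposited, 329.4 implied by its TPM and counts) and were not used; TPM was taken as the level per length. TPM of 14101 detected coding genes (at least 0.1 TPM in at least 10 libraries) was log-normalized and scaled in Seurat 5.3.0 under R 4.3.3. Principal components were taken from the 20 genes used for grouping (feature genes) alone. Clusters came from 10 principal components and 20 neighbours, at the resolution (0.2) giving 3 clusters, so they may differ from those of the study. Libraries correlated above 0.95 were merged. Doublets were not called, as cells were collected under a microscope. Python 3.11.15 was used for ratios, shares and Spearman's rho (SciPy 1.17.1, NumPy 2.4.6 and pandas 2.3.3) and Biopython 1.88 for aligning sequences.

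GENCODE M21 held 28006 of the symbols, RefSeq supplied further matches, and these gave 19766 coding genes. The ratio script was tested on simulated data. The members and gene lists were chosen with earlier results of these data known. Named genes are the members, the other actins and monomer-binding genes, the 2 most abundant genes of each other list, the 3 genes most like each member that had 1 TPM in at least 50% of cells, and cell type markers. Named outside that rule, after values were seen, are Lrrc58, the feature genes Sycp2, Zp3, Figla and Taf4b, and the copies of Tmsb10 and Actg1. Alternatives were a pseudocount of 0.1, mean log2 values, CPM, division by spike-in TPM, other clusters, all cells, cells with few somatic markers, each cell left out, other detection rules and other orders; treatments of library pairs were added after seeing the data. Amino acid identity was not analysed here.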

Additional observations from a re-analysis of the deposited data

How the results depend on the processing

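The cells come from 1 litter with no animal named per cell, so no value has an error between animals. Low levels such as those of Tmsb4x and Cap1 may be limited by capture of RNA from 1 cell, which was not tested. No paired analysis was possible because all cells belong to 1 group. Between clusters 3 and 1, the log2 ratio kept its direction and its side of the 1.5-fold rule under the 11 alternatives that could move it (no library pair lies in these clusters) for Actb (1.95 to 3.51), Tmsb10 (3.61 to 5.67), Pfn1 (2.16 to 3.41), Cfl1 (1.19 to 2.82), Cfl2 (0.77 to 1.82) and Cap1 (-1.58 to -0.60).

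Actg1 passed the rule as CPM (0.60) and per spike-in TPM (1.17). Tmsb4x fell short of it with 3 equal parts of the first component (-0.47) and with clusters of the 2000 most variable genes (-0.22), and ranged from -2.22 to -0.36 with 1 cell left out. Between clusters 3 and 2 it reversed with Ward clusters (-1.11) and without library 10 (-0.93; highest value with 1 cell left out 0.51), and Pfn2 reversed per spike-in TPM (0.59). On the spike-in scale the median of all genes was itself 0.48 between clusters 3 and 1 and 0.68 between clusters 3 and 2. Relative to it, Actg1 stood at 0.70 (0.65 before the division) and Pfn2 at -0.09 (0.01 before). Beyond this common shift, the cause was not tested for any of these changes.

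The number of members called lower in cluster 2 than in cluster 1 was 1 with equal parts, with variable genes and without the cells highest in summed somatic markers. It was 3 as a difference of mean log2 values, and 1 to 2 with 1 cell left out. The shares of all genes called lower were 24.7% with equal parts, 24.6% with variable genes, 26.9% without those cells and 27.6% with mean log2 values. Shares with 1 cell left out were not computed, here and below. In cluster 3 against cluster 2, 8 were called higher per spike-in TPM, beside 54.96% of all genes on that scale, and 3 with variable genes, beside 17.7% of all genes, and 1 was called lower with a pseudocount of 0.1, with Ward clusters and with library pairs kept apart (0 to 1 with 1 cell left out). In cluster 3 against cluster 1, 1 was called lower with equal parts, beside 35.1% of all genes, and 1 with variable genes, beside 37.1%. With 1 cell left out, 1 to 2 were called lower. At 0.1 TPM, Tmsb4x was found in 64.5% and Cap1 in 57.97% of cells. The Pfn1 share as estimated counts was 26.8%, 45.8% and 76.9% in clusters 1, 2 and 3. Per spike-in TPM the rho of Pfn2 with the order was 0.051 and the median rho of the 36 pairs was 0.45.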
